A study of Mus musculus with 4 samples.

Results

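Chromatin accessibility was examined at 10 genes of macrophages and of antigen presentation in mouse adipose tissue, out of 21000 protein-coding genes with a curated RefSeq transcript. The macrophage members were Spi1, Csf1r, Adgre1, Itgam, Mrc1 and Cd68, and the antigen presentation members were Ciita, Cd74, H2-Aa and H2-Ab1. They form a list of named genes, drawn up with earlier results of these libraries known and with no threshold on their values. Peaks were collected at each promoter, defined as 500 bp either side of any curated start site on mm10, and over each locus, from 20 kb upstream of the first start site to the end of the gene.

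Visceral fat of outbred CD-1 mice was taken at 8 weeks of age and profiled by ATAC-seq, in which a transposase cuts open chromatin and tags it for sequencing. There were 4 libraries in 2 groups. Control 1 and control 2 came from animals descended from females that received sesame oil in pregnancy. BPA 1 and BPA 2 came from animals descended from females that received daily intraperitoneal injections of bisphenol A (BPA), a plasticiser, at 50 mg/kg between embryonic days 7.5 and 13.5. The animals measured were later descendants that were not dosed themselves, and their generation is given differently in the labels and in the methods. No source names a batch or the sex of the animals, and treatment and batch cannot be told apart if they went together. Nuclei were counted from whole homogenised tissue and not sorted, so fewer nuclei of a cell type and less open chromatin per nucleus cannot be told apart.

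Macrophages are resident in fat, where they clear dying adipocytes and lipid and change in number and state with body weight. Their identity rests on the transcription factor PU.1, encoded by Spi1, and on signals through the receptor Csf1r. Together with dendritic cells and B cells they present extracellular antigen on MHC class II molecules, whose genes are switched on by the coactivator encoded by Ciita acting on factors bound to X and Y boxes in class II promoters.

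The lists held 72375 to 98060 peaks per library. Peaks were placed on a common scale by their percent rank, the rank of a peak by the authors' −log10 q-value as a percentage of the peaks of its own library, so that a value near 0 is a strong peak and a value near 100 a weak peak. The read pile-up at a summit and the local background behind it were recovered from the deposited fold and p-value. Pile-ups are given without scaling for depth. The lowest local background, a rough measure of depth, was 2.85 in control 1 and 2.70 in control 2, and 1.16 in BPA 1 and 3.80 in BPA 2, so the shallowest and the deepest library were both BPA libraries. The lowest pile-up that was called a peak was 9 reads in each control library, 6 in BPA 1 and 11 in BPA 2, and a site without a peak may still be open below that level. All 6 adipocyte markers (Adipoq, Plin1, Cidec, Lep, Fabp4 and Pparg) had a promoter peak in all 4 libraries, as had 57.9% of coding genes. Their ranks ran from 7.16% (Pparg in BPA 2) to 88.95% (Plin1 in BPA 2). The median over coding genes with a promoter peak was 7.08% to 10.9% by library. With 2 libraries per group, the smallest two-sided p-value of an exact permutation test is 0.333, so no test between groups was made and all differences below are descriptions of these libraries.

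More members had a promoter peak in the BPA libraries than in the controls. A promoter peak was present at 5 of 10 members in control 1 and 6 in control 2, and 9 in BPA 1 and 9 in BPA 2. Over all coding genes the share was 62.6% in control 1 and 61.4% in control 2, and 64.1% in BPA 1 and 67.5% in BPA 2. The members thus stood at or below the coding average in the controls and above it in both BPA libraries. The part of depth and of the lowest pile-up called, which differed between libraries, was not tested.

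By pattern over the libraries, 4 members (Spi1, Adgre1, Ciita and H2-Ab1) had a promoter peak in all 4 libraries, a pattern shown by 57.9% of coding genes. Mrc1 and Cd68 had a promoter peak in BPA 1 and BPA 2 but in no control, a pattern shown by 2.51% of coding genes, or 21.5% of the coding genes with a promoter peak in 1 to 3 libraries. Of the 5 members with a promoter peak in 1 to 3 libraries, these were 2. The reverse pattern, both controls and neither BPA library, was shown by 0 members and 0.433% of coding genes. Csf1r had no promoter peak in any library, as had 30.4% of coding genes. Itgam and H2-Aa lacked a peak in control 1 only, and Cd74 lacked a peak in control 2 only, so the control libraries did not share their gaps at these genes.

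**Figure D1:**
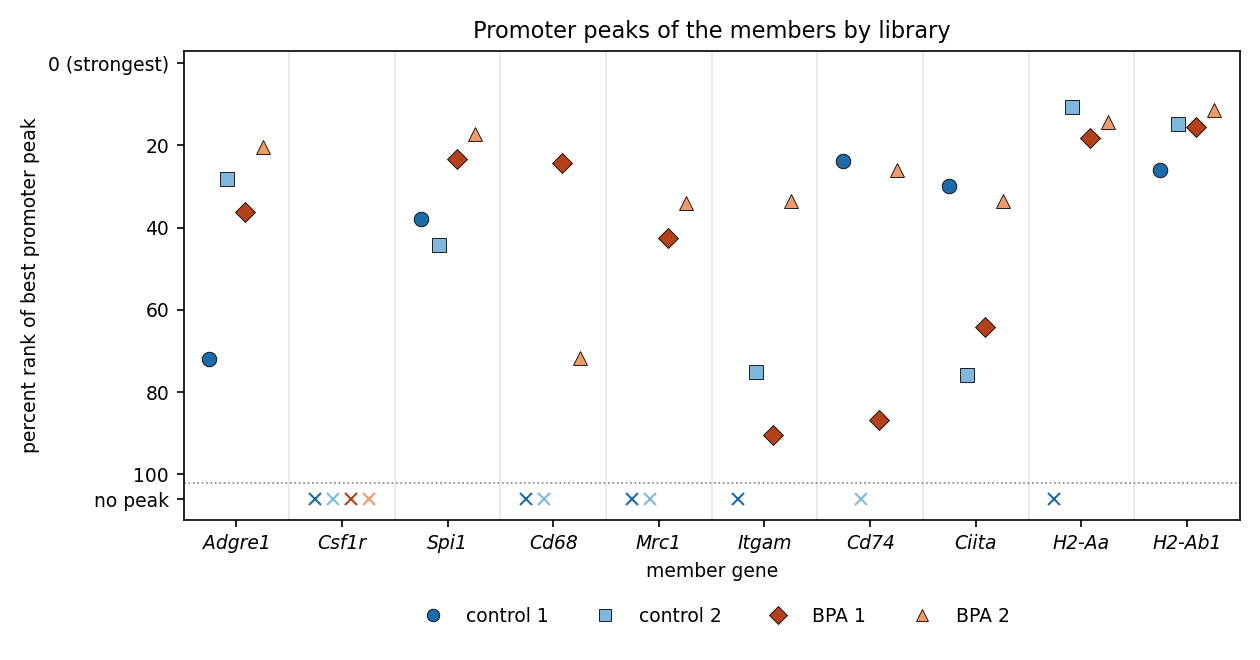
Percent rank of the best promoter peak of each of the 10 members (vertical axis, 0 strongest, reversed) in control 1, control 2, BPA 1 and BPA 2; crosses below the dotted line mark libraries without a promoter peak. Cd68 and Mrc1 have symbols from BPA 1 and BPA 2 only, Csf1r has crosses in all 4 libraries, and H2-Aa and H2-Ab1 hold the strongest peaks, with every peak within the best 26.0% of its list.

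Spi1, the gene of the transcription factor PU.1, was the only member with a promoter peak in all 4 libraries whose BPA ranks were both better than both control ranks. Its start sites lie on chromosome 2 at 91082405, 91096678 and 91096700. At the first of these, the peak ranked at 37.8% in control 1 and 44.3% in control 2, and 23.4% in BPA 1 and 17.1% in BPA 2. The groups did not overlap, and the means were 41.1% ± 4.62 in controls and 20.3% ± 4.44 in BPA (SD, n = 2 each), a difference of -20.81 percentage points. The difference was -40.57 points when peaks under a −log10 q-value of 5 were left out and the rest ranked anew. Among the 12166 coding genes with a promoter peak in all 4 libraries, 40.7% had both BPA ranks better and 18.7% had both control ranks better, so the order seen at Spi1 was common. The pile-up was 32 reads in control 1 and 29 in control 2, and 51 in BPA 1 and 172 in BPA 2. The local background behind these summits was 2.72 and 2.38 times the lowest of its library in the controls and 7.49 and 10.6 times in BPA 1 and BPA 2, and its part in the difference was not tested.

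The summits of this region lay in the first intron, 601 to 680 bp downstream of the first start site, and 13672 bp upstream of the start site at 91096678 for the summit in BPA 2. They lay outside the 500 bp window that the peaks reached into, and when the summit itself had to lie inside it, 3 members, without Spi1, had such a peak in every library. An upstream regulatory element of Spi1 that binds PU.1 itself is known from myeloid cells, and whether this region is that element was not tested here. The 151 bp around the summit in BPA 2 are shown because the promoter ranks of the groups did not overlap there. They are called upstream for their place before the start site at 91096678, and they lie downstream of the first start site. The capitals mark the letters TTGCNNAA on either strand, the core read by C/EBP factors, partners of PU.1 in myeloid cells. The reference sequence is from GRCm38.p6, chr2:91082931-91083081, plus strand:
Spi1 upstream region: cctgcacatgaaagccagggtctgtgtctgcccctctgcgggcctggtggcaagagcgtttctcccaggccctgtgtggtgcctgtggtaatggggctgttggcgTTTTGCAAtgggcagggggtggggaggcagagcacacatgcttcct

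C/EBP letters were found around the summit of 9.57% of all regions in coding loci, so their presence here is a description and not a binding site. At the main start sites of Spi1 the peak ranked at 51.1% in control 1, 38.5% in BPA 1 and 20.7% in BPA 2, and control 2 had no peak within 500 bp. Control 2 did have a peak at 84.9% in the region around them, chr2:91096282-91098593. A region in intron 1, chr2:91083888-91085045, had a peak in the BPA libraries only, at 75.6% in BPA 1 and 19.1% in BPA 2, with 27 and 162 reads at the summit. The strongest region of the locus away from promoters lay in the last exon, 32827 bp downstream of the first start site. It ranked at 17.1% in control 1 and 22.3% in control 2, and 19.4% in BPA 1 and 13.3% in BPA 2, so the groups overlapped there. The other regions of the locus with peaks in all 4 libraries were in intron 2, with BPA ranks from 28.9% to 96.1% and control ranks from 17.7% to 67.9%, at the Slc39a13 promoter and inside Slc39a13.

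Csf1r encodes the receptor for the growth factors Csf1 and Il34 on which most tissue macrophages depend. It had peaks inside the gene and upstream of it, but none within 500 bp of its start site on chromosome 18 at 61105572. Intron 2 held a region 3068 bp downstream of the start site (chr18:61107507-61109083) with a peak in all 4 libraries. It ranked at 49.9% in control 1 and 58.2% in control 2, and 17.4% in BPA 1 and 11.3% in BPA 2. The groups did not overlap, with means of 54.1% ± 5.86 in controls and 14.3% ± 4.28 in BPA (SD, n = 2 each). The difference of -39.75 percentage points was the largest in favour of BPA among the 24 regions of the member loci with a peak in all 4 libraries. The pile-up was 24, 21, 55 and 195 reads in control 1, control 2, BPA 1 and BPA 2. The local background was 2.02 and 1.75 times the lowest of its library in the controls and 6.14 and 8.13 times in the BPA libraries, and its part was not tested. Intron 2 of Csf1r is known to hold a macrophage enhancer.

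At Csf1r, 3 further regions had a peak in BPA 1 and BPA 2 but in no control. The strongest, in intron 11 at 15201 bp downstream of the start site, ranked at 25.6% in BPA 1 and 26.7% in BPA 2 with 35 and 85 reads. A region 6377 bp upstream ranked at 43.4% and 37.9%. The weakest, in intron 15 at 22083 bp downstream, was at 77.9% and 82.6%. Another region, 13203 bp upstream, had peaks in control 1 at 35.9%, BPA 1 at 86.1% and BPA 2 at 58.7%, with the peak of control 1 apart from that of BPA 1 within the merged interval. Control 1 therefore had a peak in 2 of the 5 regions and control 2 in 1, against 5 in each BPA library.

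Adgre1 encodes F4/80, the surface antigen most used to mark mouse macrophages. Its promoter on chromosome 17 (start site at 57358686) had a peak in all 4 libraries, at 71.9% in control 1 and 28.3% in control 2, and 36.1% in BPA 1 and 20.5% in BPA 2. The control libraries lay on either side of BPA 1, and the difference of -21.78 percentage points between the means was smaller than the SD of 30.8 in controls and was 0.0168 without control 1. The pile-up was 13, 25, 21 and 79 reads in the same order. A region 11417 bp upstream, chr17:57347056-57347974, ranked at 69.2% in control 1 and 71.6% in control 2, and 54.4% in BPA 1 and 21.1% in BPA 2, so that the groups did not overlap. Almost the whole gene body was without peaks, since the only region inside it was in intron 7 and came from BPA 2 alone, with 16 reads.

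Itgam encodes CD11b, the alpha chain of complement receptor 3, which is shared by macrophages, monocytes and neutrophils. Its promoter on chromosome 7 (start site at 128062640) had a weak peak in 3 libraries, at 75.03% in control 2 and 90.5% in BPA 1, with 13 and 11 reads. In BPA 2 it ranked at 33.6% with 70 reads, but the summit of that wide peak lay 792 bp downstream, in intron 1. Regions 11658 bp and 3693 bp upstream of the start site had peaks in the BPA libraries only. The farther of these ranked at 52.1% in BPA 1 and 79.3% in BPA 2, and the nearer at 68.6% and 65.6%. In intron 14, chr7:128105105-128105978, all 4 libraries had a weak peak between 71.4% and 81.6%, and the groups overlapped.

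Mrc1 encodes the mannose receptor CD206, a marker of resident and anti-inflammatory macrophages that is also carried by some endothelial cells. Its promoter on chromosome 2 (start site at 14229414) had no peak in either control. It ranked at 42.4% in BPA 1 and 34.0% in BPA 2, with 22 and 67 reads and folds of 6.001 and 4.84 over local background. Cd68, a lysosomal glycoprotein of macrophages, had a promoter peak in the same libraries on chromosome 11 (start site at 69666170). The Cd68 peak ranked at 24.2% in BPA 1 and 71.7% in BPA 2, with 67 and 112 reads. The BPA libraries thus differed widely at Cd68, with an SD of 33.6 (n = 2), and by little at Mrc1, with an SD of 5.92.

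The 200 bp upstream of both start sites are shown, since Cd68 and Mrc1 were the only members whose promoter peaks, over all their start sites, came from the BPA libraries alone. In capitals are the letters TGANTCA, the AP-1 core, and TTGCNNAA, the C/EBP core, on either strand. At Cd68 the window holds the AP-1 letters at 2 positions, which 4.78% of the 26208 start sites of coding genes hold at least once in a window of this length, and the C/EBP letters at 1 position, against 6.85% of start sites. The Mrc1 window held none of the letters searched, which says nothing of the factors that may act there. The sequences are from GRCm38.p6, for Cd68 chr11:69666171-69666370 read on the minus strand and for Mrc1 chr2:14229214-14229413 on the plus strand:
Cd68 promoter: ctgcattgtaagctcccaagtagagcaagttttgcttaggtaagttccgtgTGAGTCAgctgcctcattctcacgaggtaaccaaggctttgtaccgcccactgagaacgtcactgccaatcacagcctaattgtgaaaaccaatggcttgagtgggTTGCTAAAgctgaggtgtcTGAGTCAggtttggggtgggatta
Mrc1 promoter: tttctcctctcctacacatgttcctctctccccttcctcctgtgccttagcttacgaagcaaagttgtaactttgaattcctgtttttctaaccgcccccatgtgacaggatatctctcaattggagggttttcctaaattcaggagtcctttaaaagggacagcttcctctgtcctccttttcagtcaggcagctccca

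The Cd68 locus had the highest median local background of the member loci in every library. At its 3 regions with a peak in all 4 libraries, all of them promoters of neighbouring genes (Eif4a1, Senp3 and Tnfsf13), the median background was 3.40 and 3.24 times the lowest of the library in controls and 12.0 and 15.3 times in BPA 1 and BPA 2. Over the 28623 regions of all coding loci with a peak in all 4 libraries, the medians were 2.17 and 2.09 in controls and 3.13 and 3.41 in BPA. At the Cd68 promoter itself the background was 13.4 and 15.4 times the lowest, and the fold over it was 4.13 in BPA 1 and 1.90 in BPA 2. At the Mrc1 promoter it was 2.45 and 3.44 times. The part of this background in the Cd68 result was not tested. The promoters of Senp3 and Tnfsf13 also ranked better in both BPA libraries, at 11.8% and 17.4% in BPA 1 and 9.87% and 10.3% in BPA 2, against 26.6% to 57.9% in the controls.

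Inside Mrc1, intronic regions differed in both directions. The region 66095 bp downstream of the start site in intron 15 (chr2:14294971-14295656) was among the strongest of the member loci in controls, at 8.03% in control 1 and 12.8% in control 2, and ranked at 53.2% in BPA 1 and 42.2% in BPA 2. The means were 10.4% ± 3.40 in controls and 47.7% ± 7.73 in BPA (SD, n = 2 each), and the groups did not overlap. Its pile-up was 38, 35, 13 and 33 reads in control 1, control 2, BPA 1 and BPA 2, on a local background at the lowest value of each library. Another in intron 1, 8518 bp downstream, showed the same order, at 29.1% in control 1 and 16.9% in control 2, and 98.5% in BPA 1 and 51.4% in BPA 2, with 28, 39, 9 and 39 reads. These were the only regions of the member loci with a peak in all 4 libraries where both control ranks were better. Their pile-ups are not scaled for depth, and the lowest local background was 1.16 in BPA 1 against 2.70 to 3.80 in the other libraries. The part of depth in the order of these regions was not tested. A region in intron 4, 20721 bp downstream, had the opposite order, at 47.0%, 66.8%, 23.6% and 16.2%. In intron 2, 10175 bp downstream, a very weak region at 96.1% in BPA 1 and 95.9% in BPA 2 had no peak in controls.

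The 151 bp around the summit of the intron 15 region in control 1 are shown because this region and the Mrc1 promoter, in the same gene, differed in opposite directions. It held none of the letters searched (GRCm38.p6, chr2:14295434-14295584, plus strand):
Mrc1 intron 15 region: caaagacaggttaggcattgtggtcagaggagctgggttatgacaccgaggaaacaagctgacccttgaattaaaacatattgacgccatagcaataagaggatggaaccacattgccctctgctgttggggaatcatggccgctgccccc

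**Figure D2:**
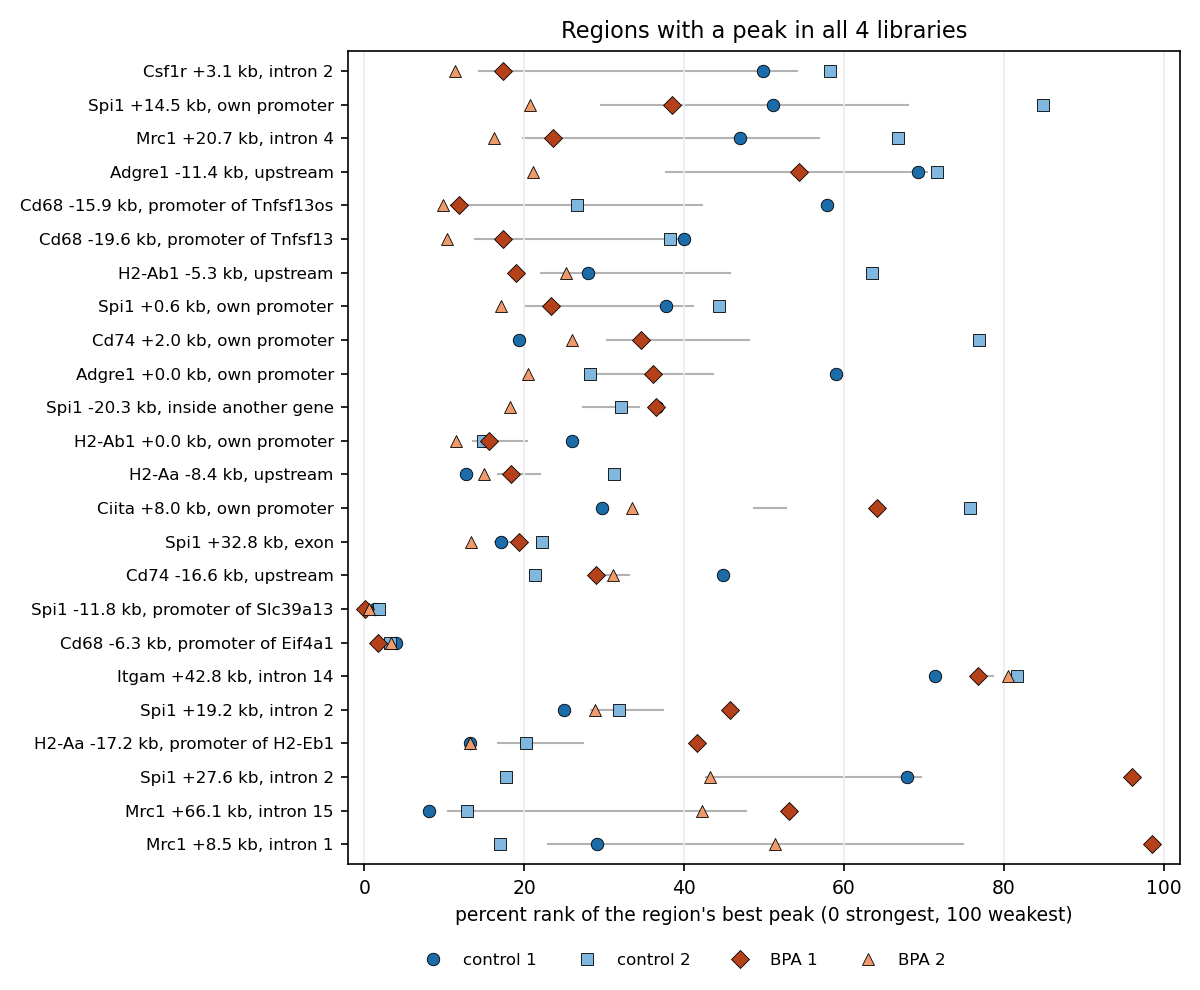
Percent rank (horizontal axis, 0 strongest) of the 24 regions of the member loci with a peak in all 4 libraries, ordered by the BPA minus control difference of the means, which the grey lines join; names give the gene, the distance of the summit from its first start site and what lies there. The intron 2 region of Csf1r stands at the top with BPA ranks of 17.4% and 11.3%, and the Mrc1 regions in introns 15 and 1 stand at the bottom with control ranks of 8.03% to 29.1%.

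Ciita encodes the coactivator that switches on class II genes and is transcribed from alternative promoters that differ between cell types, the most upstream being used by dendritic cells and macrophages, the middle by B cells and the most downstream by cells exposed to interferon gamma. The curated start sites on chromosome 16 lie at 10480072, 10488178 and 10489781. At the first, only the BPA libraries had a peak, at 76.2% in BPA 1 and 48.8% in BPA 2, with 15 and 55 reads and summits 77 and 32 bp upstream. At the middle site the strongest peak was that of control 1, at 29.8% with its summit 130 bp upstream. BPA 1 and BPA 2 reached that site with wide peaks at 64.1% and 33.4%, and control 2 had none. At the last, separate peaks were called in control 1 at 71.7% and in control 2 at 75.8%, while the peaks of BPA 1 and BPA 2 were those that also covered the middle site. Taken over any start site, the means were 52.8% ± 32.6 in controls and 48.8% ± 21.7 in BPA (SD, n = 2 each), a difference of -4.02 points that was smaller than either SD and turned to 18.99 without control 2 and 11.3 without BPA 2.

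At Ciita 8 of 13 regions came from a single library, as did 8 of 15 at Mrc1. Control 1 alone had peaks in intron 12 at 27.1% with 32 reads, in intron 8 at 52.2% and in intron 1 at 74.5%. The same library was the only one with promoter peaks at the B cell genes Ms4a1, at 25.1%, and Cd79a, at 76.4%. The T cell genes Cd3e, Cd3g and Cd8a had no promoter peak in any library. Control 1 also differed from control 2 at Cd74. Whether B cells had a part in the Ciita and Cd74 peaks of control 1 was not tested.

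The window upstream of the last Ciita start site is shown because it holds 2 short elements close to each other, in capitals: TTCNNNGAA, the GAS core read by STAT factors after interferon signals, and CACGTG, the E box. GAS letters were held by 5.11% and the E box by 5.87% of coding start sites in windows of this length. Neither was found in the windows of the other Ciita start sites. The sequence is from GRCm38.p6, chr16:10489581-10489780, plus strand:
Ciita last promoter: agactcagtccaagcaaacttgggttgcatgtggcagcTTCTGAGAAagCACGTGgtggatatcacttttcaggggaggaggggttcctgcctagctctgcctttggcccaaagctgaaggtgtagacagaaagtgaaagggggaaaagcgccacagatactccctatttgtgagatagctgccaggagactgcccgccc

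H2-Aa and H2-Ab1 encode the alpha and beta chains of the class II molecule I-A and are neighbours on chromosome 17, with start sites at 34287823 and 34263227. H2-Ab1 had a promoter peak in all 4 libraries, at 26.0% in control 1 and 14.8% in control 2, and 15.6% in BPA 1 and 11.5% in BPA 2. Control 2 was better than BPA 1, so the groups overlapped, and the difference of -6.83 points between the means was smaller than the SD of 7.90 in controls and was -1.24 without control 1. With peaks under a −log10 q-value of 5 left out and the rest ranked anew it was -16.16 points. That step spread the control ranks more than the BPA ranks. H2-Aa had no promoter peak in control 1, and in control 2 its peak at 10.6% was the best ranked promoter peak of any member in any library. In the BPA libraries it ranked at 18.3% and 14.4%. The pile-up at H2-Aa was 41 reads in control 2, 36 in BPA 1 and 115 in BPA 2, with folds of 9.55, 10.2 and 7.85, and its summits lay 24, 24 and 17 bp upstream of the start site.

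The promoter windows of this pair are shown because class II promoters are read through fixed elements near the start site, where these summits lay. Capitals mark ACNGATG, a core of the X box, and CTGATTGG, the Y box bound by NF-Y. H2-Ab1 held the X box letters at position -74 and the Y box at -48, counted from the start site. H2-Aa held the Y box letters at -51 without the X box letters. Only these exact letters were searched, so their absence does not show that H2-Aa lacks an X box. An X box core followed within 40 bp by a Y box was found at 5 of the 26208 coding start sites (0.0191%), and H2-Ab1 was the only member among them. The Y box alone was found at 4.13% of start sites. These are reference sequences, and the alleles of these outbred animals were not analysed here (GRCm38.p6, H2-Ab1 chr17:34263027-34263226 on the plus strand, H2-Aa chr17:34287824-34288023 on the minus strand):
H2-Ab1 promoter: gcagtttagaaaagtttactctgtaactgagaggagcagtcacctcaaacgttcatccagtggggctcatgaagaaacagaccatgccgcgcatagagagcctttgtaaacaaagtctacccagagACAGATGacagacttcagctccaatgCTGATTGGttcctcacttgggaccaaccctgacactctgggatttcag
H2-Aa promoter: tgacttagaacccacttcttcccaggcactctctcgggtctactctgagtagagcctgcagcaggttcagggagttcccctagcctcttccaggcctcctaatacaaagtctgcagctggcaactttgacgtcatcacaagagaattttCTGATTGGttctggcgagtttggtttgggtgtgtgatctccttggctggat

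Between and around the pair, other regions were open in all 4 libraries. A region 8427 bp upstream of H2-Aa, chr17:34295743-34296845, ranked at 12.8% in control 1 and 31.3% in control 2, and 18.4% in BPA 1 and 15.03% in BPA 2. Control 1, which lacked a promoter peak at H2-Aa, thus had its best peak of that locus there. A region 5304 bp upstream of H2-Ab1 ranked at 27.97%, 63.5%, 19.03% and 25.3% in the same order, with both BPA ranks better by a small margin over control 1. A region 12469 bp upstream of H2-Ab1 had peaks in BPA 1 and BPA 2 only, at 65.3% and 57.6%. The promoter of H2-Eb1, the beta chain gene of the I-E molecule, lay 17190 bp upstream of H2-Aa and ranked at 13.3%, 20.3%, 41.6% and 13.2%.

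Cd74 encodes the invariant chain, which escorts class II molecules to the endosome. Its promoter on chromosome 18 (start site at 60803849) had a peak at 23.9% in control 1 with 44 reads, at 86.8% in BPA 1 with 18 reads and at 26.0% in BPA 2 with 118 reads. The peak in BPA 2 was 4278 bp wide and had its summit 2011 bp downstream, in intron 1. Control 2 had no peak at the promoter but had one in the same region at 76.9%. Taken over the whole region, the ranks were 19.4% in control 1 and 76.9% in control 2, and 34.7% in BPA 1 and 26.0% in BPA 2, so the groups overlapped. A region 16640 bp upstream was open in all 4 libraries between 21.4% and 44.9%, and a region 14372 bp upstream had peaks in the BPA libraries only, at 69.3% and 62.6%.

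Over the 10 loci, peaks of the 4 libraries merged into 77 regions, of which 42 had a peak in control 1 and 32 in control 2, and 44 in BPA 1 and 63 in BPA 2. A peak in all 4 libraries was found in 24 regions (31.2%), against 30.1% of the 95111 regions in loci of all coding genes. A peak in 1 library was found in 29 (37.7%), against 35.6%, with 11 from control 1, 2 from control 2, 1 from BPA 1 and 15 from BPA 2. These shares were close to those of all loci. The groups differed in the remaining patterns. Both BPA libraries and neither control had a peak in 12 regions (15.6%), against 9.72% of regions in all loci. Both controls and neither BPA library had a peak in 0 regions, against 4.64%.

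Among the 24 regions with a peak in all 4 libraries, both BPA ranks were better in 9 (37.5%), against 30.4% in all coding loci, and both control ranks were better in 2 (8.33%), against 25.3%. The remaining 13 overlapped. Of the 9 regions, 3 were promoters of other genes in the loci of Spi1 and Cd68. Csf1r held 3 of the 12 regions found in BPA alone, Mrc1 and Itgam 2 each, and Spi1, Cd68, Cd74, Ciita and H2-Ab1 1 each, while Adgre1 and H2-Aa held none.

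By position, 34 of the 77 regions had their best summit in an intron of the member and 23 lay upstream, away from any promoter. There were 11 at a member promoter, 5 at the promoter of another gene, 3 inside another gene and 1 in an exon. Of the intronic regions, 18 came from 1 library, 4 from the BPA libraries alone (in Csf1r introns 11 and 15, Spi1 intron 1 and Mrc1 intron 2) and 7 from all 4 libraries. Of those 7, BPA ranks were better in 2 (Csf1r intron 2 and Mrc1 intron 4), control ranks were better in 2 (Mrc1 introns 1 and 15) and 3 overlapped. Introns thus held regions of both orders, and every region with the better ranks in controls was in Mrc1.

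**Figure D3:**
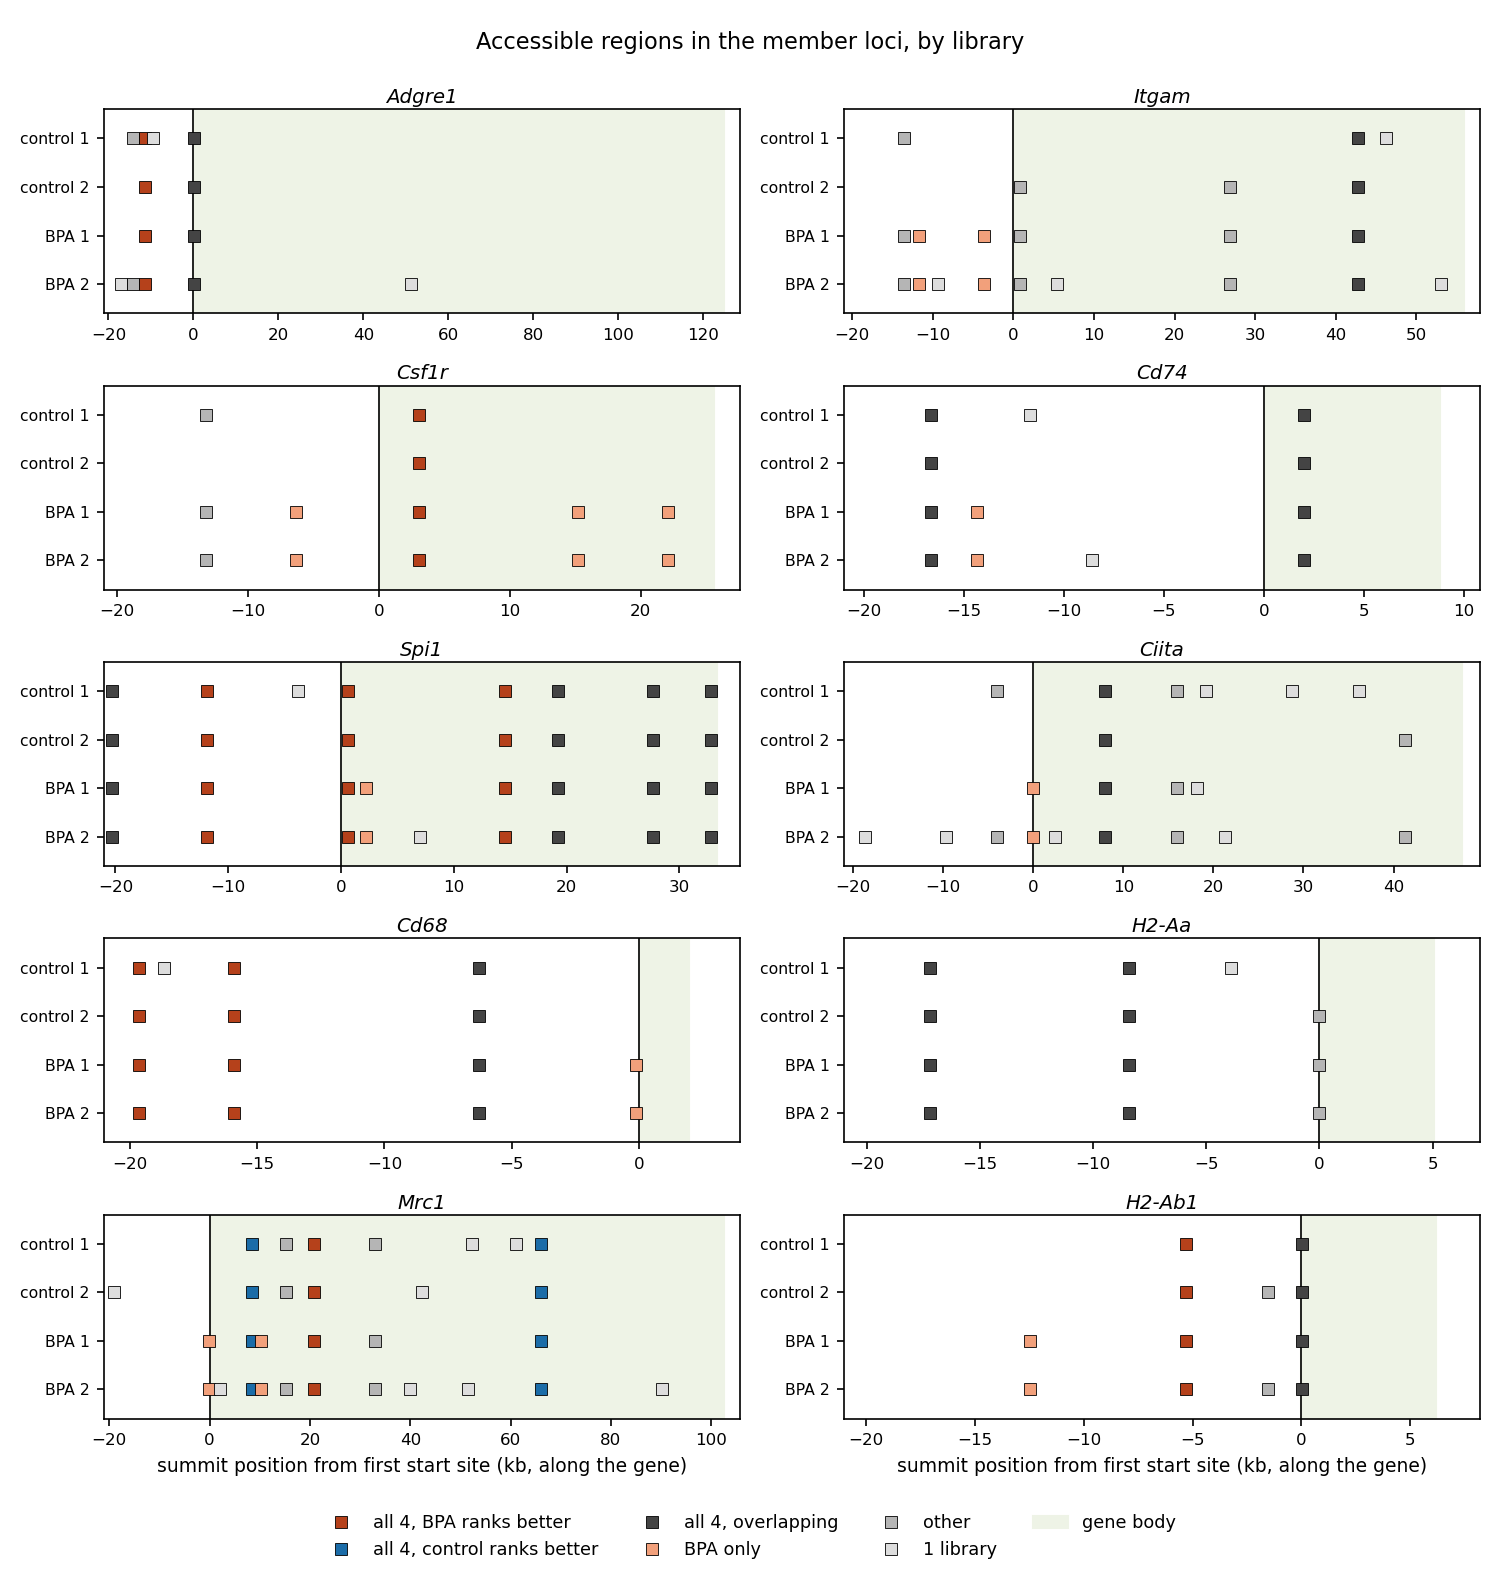
Position of every region of the 10 member loci (horizontal axis, kb from the first start site in the direction of transcription) in each library (rows); a square means that the library has a peak in the region, its colour gives the pattern over the 4 libraries, and shading marks the gene body. Csf1r shows 5 regions in each BPA library against 2 in control 1 and 1 in control 2, and no square lies at its start site.

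Short letters of myeloid factors were searched in the 151 bp around the best summit of each region, on both strands, as a feature that the choice of genes did not use. The PU.1 letters GAGGAAGT were found in 5 of the 77 regions (6.49%), against 2.59% of regions in all coding loci. Of the 5, 1 was among the 24 regions with a peak in all 4 libraries and 1 among those in BPA alone. The others, in Itgam introns 2 and 24 and upstream of Ciita, came from BPA 2 only. The composite GGAANNGAA read by PU.1 with IRF factors was found in 6 of the 77 (7.79%), against 5.47%. AP-1 letters were found in 2 (2.60%), against 7.58%, and C/EBP letters in 5 (6.49%), against 9.57%. A PU.1 match can overlap a composite match, and with counts this small the shares are descriptions. Within 200 bp upstream of the 14 start sites of the members, the PU.1 letters were found at 0, against 1.90% of coding start sites, and the composite at 2, against 5.20%. C/EBP letters were found at 4 of the 14 (at Adgre1, Cd68 and the neighbouring Spi1 start sites at 91096678 and 91096700, whose windows overlap), against 6.85%. AP-1 letters were found at 2 (Cd68 and Csf1r), against 4.78%.

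Other genes of these pathways, listed with earlier results of these data known, were counted at their promoters in the same way. Over 74 such genes, 49 had a promoter peak in control 1 and 40 in control 2, and 62 in BPA 1 and 68 in BPA 2. Both BPA libraries and neither control had a peak at 14 of them (18.9%), against 2.51% of all coding genes, and both controls and neither BPA library at 0. All 4 libraries had a peak at 40 (54.1%) and no library at 6. Of the 28 genes with a peak in 1 to 3 libraries, the 14 were 50.0%, against 21.5% over coding genes.

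Genes of macrophage surface and function carried most of this difference. Of 18 surface proteins and receptors, 10, 6, 14 and 17 had a promoter peak in control 1, control 2, BPA 1 and BPA 2. In BPA alone were Fcgr1, an Fc receptor for IgG, the chemokine receptor Cx3cr1, the hyaluronan receptor Lyve1, which also marks lymphatic vessels, and the scavenger receptor Marco, and the haemoglobin scavenger Cd163 had no peak in any library. Of 12 effector genes the counts were 5, 3, 10 and 11. In BPA alone were C1qa, C1qb and C1qc, neighbouring genes for the chains of complement C1q, the Fc receptor gamma chain Fcer1g and Ms4a7, and Aif1 had no peak. The ranks of the C1q promoters were 43.1%, 40.8% and 61.98% in BPA 1 and 38.9%, 29.1% and 64.1% in BPA 2. Of 6 growth factors and their receptors, 1, 1, 4 and 4 had a peak. In BPA alone were the receptors Csf2ra, Csf2rb and Flt3, and the ligands Il34 and Csf2 had no peak, while Csf1 had a peak in all 4 libraries. Promoters with a peak in all 4 libraries differed in the order of their ranks. Of 6 such surface genes, both control ranks were better at 2 (Trem2 and Tlr4) and both BPA ranks at 0. Of 3 such effector genes, both BPA ranks were better at 2 and both control ranks at 0. At Csf1 both BPA ranks were better. Over such coding genes, both BPA ranks were better at 40.7% and both control ranks at 18.7%.

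Genes of transcription and of antigen presentation were mostly open in both groups. Of 12 myeloid transcription factors, 11, 10, 12 and 12 had a promoter peak, and Tfec alone had a peak in BPA only. All 7 transcription factors of class II promoters (Rfx5, Rfxap, Rfxank, Nfya, Nfyb, Nfyc and Creb1) had a peak in all 4 libraries. Of 10 genes of the class II pathway the counts were 7, 6, 7 and 9, with H2-DMb2, a chain of the peptide editor H2-M, in BPA alone and H2-DMb1 in no library. H2-DMb1 and H2-DMb2 are near copies of each other, so the split of reads between them is uncertain. Of 9 genes of the class I pathway, 8, 7, 8 and 8 had a peak, and the class I coactivator gene Nlrc5 had none. Among these lists, the share with a peak in BPA alone was thus highest for growth factors (3 of 6) and effectors (5 of 12). It was 0 in class II transcription and class I. Only genes with a peak in 1 to 3 libraries can show this pattern. There were 3 such genes in the growth factor list and 8 in the effector list, against 0 in class II transcription and 1 in class I.

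Markers of other cell types were counted beside these, since the tissue was not sorted. Of 5 endothelial markers, 2 had a promoter peak in each control and 5 in each BPA library. Pecam1, Cdh5 and Emcn were present in BPA alone, so the endothelial list, like the macrophage lists, had more promoter peaks in BPA. Of 5 fibroblast markers 4, 4, 5 and 5 had a peak, with Pi16 in BPA alone. Of 6 neutrophil markers 1, 1, 2 and 2 had a peak, with the receptor Csf3r in BPA alone and with Ly6g, S100a9, Mpo and Elane without a peak. Of 5 dendritic cell markers 1, 1, 2 and 3 had a peak, with Cd209a in BPA alone and with Xcr1 and Clec9a without a peak. Of 3 mesothelial markers 2, 2, 2 and 1 had a peak. The part of these cell types in the promoter peaks of the members was not tested.

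**Figure D4:**
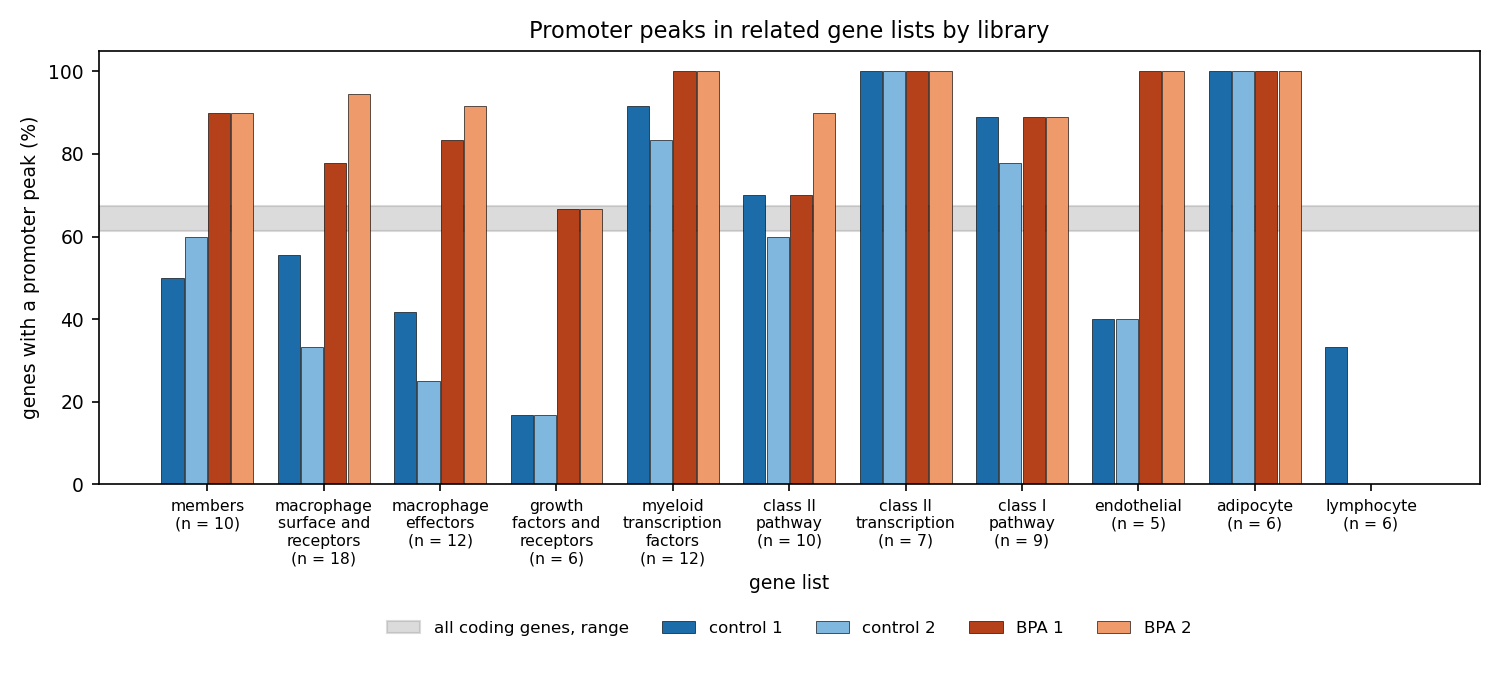
Share of genes with a promoter peak (vertical axis, %) in each of the 4 libraries (bars), for the 10 members, 7 lists of related genes and 3 lists of markers, with the range over libraries for all coding genes (61.4% to 67.5%) as a grey band. The bars of BPA 1 and BPA 2 stand above both control bars for the members, the macrophage surface, effector, growth factor and transcription factor lists and the endothelial markers, and all bars reach 100% for class II transcription and adipocyte genes.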

How the data were processed

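The authors trimmed ATAC-seq reads with Trim Galore, mapped them to mm10 with Bowtie2 2.3.5.1, with the fragment length limit raised, kept uniquely mapped reads, removed duplicates with SAMtools and ran MACS2 2.2.7.1 per library without pooling. Other MACS2 options are not given in the sources used here. The deposited score is 10 times the −log10 q-value, and the deposited ratio is the fold of the summit pile-up over local background. Deposited p-values and q-values, as −log10, come from the peak caller. The lowest −log10 q-value was 1.30 to 1.31, a q-value of 0.05.

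Pile-up and background were solved from fold and p-value (relative error at most 1.36e-05) and, like the presence counts, tested on simulated data. Peaks sharing 1 bp or touching were merged into regions, ranked by their best peak. Start sites are those of 45756 curated RefSeq transcripts (GRCm38.p6). Python 3.11.15, numpy 2.4.6, pandas 2.3.3 and matplotlib 3.10.9 were used.

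All members were named. Regions were given in full when at a member promoter, when found in both libraries of 1 group and neither of the other, or when best by mean percent rank over the 4 libraries among regions of a locus away from promoters (Cd68 and Ciita had none). Related genes were named when found in 1 group only or in no library, and others after their values were seen. Members and lists were chosen with earlier results of these data known. The deposited list of BPA 2 carries another replicate number than its label. Alternatives tried were a floor of 5 on −log10 q, the best 20000 peaks, equal list lengths, other windows and overlaps, and leaving out each library. The result of 1 marker gene is not reported here.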

Additional observations from a re-analysis of the deposited data

How the results depend on the processing

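Of 104 recomputed counts, 83 stayed within 1.5 times the value given above, and of 33 recomputed rank differences of Adgre1, Spi1, Ciita and H2-Ab1, 30 moved by less than 1 SD. Shorter lists were ranked anew over the peaks kept, which spreads the percent ranks. With the floor of 5 on −log10 q the spread was larger in the controls than in the BPA libraries. With peaks under a −log10 q-value of 5 left out, the difference was -40.57 for Spi1 and -16.16 for H2-Ab1, and with as many peaks as the shortest list it was -25.52 for Spi1. The sign of 4 differences changed, for Adgre1 without control 1 (0.0168) and for Ciita without control 2 (18.99), without BPA 2 (11.3) and with summits in place of whole peaks (3.66). A −log10 q-value of at least 5 left 2 members with a promoter peak in all 4 libraries and 22 intronic regions. The best 20000 peaks moved most counts: the mean number of members with a promoter peak was 1.5 in controls and 3.5 in BPA, 0 members had a peak in all 4 libraries, 5 in none and 1 in BPA alone (Spi1, where Mrc1 and Cd68 were lost), and 24 regions were left, 3 in all 4 libraries, 5 in BPA alone, 1 in controls alone and 9 in introns. With as many peaks as the shortest list, 1 region was in controls alone. A reach of 5 kb upstream left 15 regions in all 4 libraries. Asking replicates to share 50% of both lengths left 14 regions in all 4 libraries and 6 in BPA alone.

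Leaving out each library in turn gave 2 to 4 members in BPA alone, 4 to 6 in all libraries, 15 to 27 regions in BPA alone and 0 to 11 in controls alone. Without control 2 the numbers were 4 members in BPA alone and 11 regions in controls alone, and without BPA 1 there were 27 regions in BPA alone. Without control 1 there were 2 regions in controls alone and without BPA 2 there was 1.

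No paired analysis was possible because no test was run and the replicate numbers are not stated to mark shared animals or batches. A promoter without a peak is not shown to be closed, since the lists hold no reads below the threshold of the caller, and this limit differs between libraries with depth.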
